A study of Mus musculus with 30 samples.

Results

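The 10 genes described here are ones that type I interferon is known to switch on, followed through both experiments of a mouse study on interleukin-34 (IL34), a ligand of the microglial receptor encoded by Csf1r. They are Ifit1, Ifit2, Ifit3, Ifit3b, Isg15, Usp18, Ifitm3, Ifi204, Ifi35 and Ifi44, matched by symbol to 10 of the 51752 genes in the deposited count table. The antibody comparisons of this study were in view when these 10 were chosen, so their differences between the antibody arms are described without a test. Differences between genotypes come from other animals and were tested, though earlier results of those animals were known too.

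In the genotype experiment 4 IL34 Het mice, which keep 1 intact copy of Il34, were set beside 3 IL34 KO mice. In the antibody experiment 4 wild-type mice received an antibody against IL34 (anti-IL34) and 4 wild-type mice a control antibody against gp120 (anti-gp120). Every animal gave RNA of whole forebrain from 1 hemisphere and RNA of CD11b+ cells, taken with magnetic beads to enrich microglia, from the other. The Het animals were 1 and 21 (male) and 20 and 23 (female), the KO animals 3 (male) and 6 and 24 (female), the anti-gp120 animals 1 and 7 (male) and 8 and 15 (female), and the anti-IL34 animals 2, 10 and 24 (male) and 11 (female). Numbers 1 and 24 occur in both experiments and stand for different animals. Age, antibody dose and schedule are not given in the sources used here, and neither is the design of the Il34 allele.

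Type I interferons such as interferon beta bind the receptor pair IFNAR1 and IFNAR2 on nearly all cells, and the kinases JAK1 and TYK2 then pass the signal on to transcription factors, among them STAT2 and IRF9. These bind a promoter motif called the interferon-stimulated response element (ISRE), and another motif of interferon-induced genes is the gamma-activated site (GAS). In the brain, microglia are known to respond to type I interferon and to express such genes. IFIT proteins hold back viral RNA in the cytosol, ISG15 is a ubiquitin-like tag, and USP18 removes that tag and blocks the receptor. IFITM3 hinders viruses at endosomal membranes and IFI204 is a DNA-binding protein of the IFI200 family. IFI35 and IFI44 are interferon-induced proteins with less settled roles.

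Levels are given as counts per M counts (CPM, M standing for mega) after TMM scaling over all 30 libraries, and differences as log2 fold changes from edgeR's quasi-likelihood fit with sex as a covariate. A call means a Benjamini-Hochberg adjusted edgeR p under 0.05 over all genes tested. Libraries held 15.1 to 75.2 M counts. Forebrain Il34 was 21.0 ± 2.53 CPM in Het (SD, n = 4) and 7.46 ± 0.883 CPM in KO (SD, n = 3), and 35.0 ± 3.25 and 36.5 ± 2.16 CPM with anti-gp120 and anti-IL34 (SD, n = 4 each). In the isolates Il34 overlapped between Het and KO, at 5.06 to 10.3 and 5.17 to 7.05 CPM. The isolates carried microglial RNA, since 8 of 8 microglial markers in the table were higher there than in forebrain of the Het animals, by 4.31 to 6.47 on the log2 scale, and 4 of 4 neuronal markers were lower. Choroid plexus markers were higher in Het isolates too, summing to 1657 to 3824 CPM against 142 to 186 CPM in Het forebrain. Endothelial markers held 481 to 787 against 141 to 154 CPM, and border macrophage markers 741 to 893 against 14.5 to 18.7 CPM. Neutrophil and monocyte markers held 37.7 to 53.1 against 0.412 to 2.47 CPM. T and NK cell markers were lower, and astrocyte and oligodendrocyte markers overlapped. Summed over those microglial markers, forebrain held 220 to 252 CPM in Het and 95.7 to 115 CPM in KO, and 352 to 431 CPM with anti-gp120 and 160 to 197 CPM with anti-IL34. In bulk RNA, fewer cells of a type and less RNA per cell cannot be told apart.

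The promoters of the 4 genes with ISRE core matches before their start are shown first, since interferon is known to act on such genes there. RefSeq promoter windows (GRCm38.p6) were at hand for 8 of the 10 genes, with 2 starts for Ifit2, and none was at hand for Ifi204 and Usp18. The 4 sequences that follow are the 250 bases before the annotated start, read 5′ to 3′ on the gene's strand, and capitals mark matches of the ISRE core motif on either strand. They cover chr19:34640639-34640888 (plus strand) for Ifit1, chr19:34583279-34583528 (plus) for Ifit3, chr19:34607707-34607956 (plus) for Ifit3b and chr4:156200819-156201068 (minus) for Isg15.
Ifit1: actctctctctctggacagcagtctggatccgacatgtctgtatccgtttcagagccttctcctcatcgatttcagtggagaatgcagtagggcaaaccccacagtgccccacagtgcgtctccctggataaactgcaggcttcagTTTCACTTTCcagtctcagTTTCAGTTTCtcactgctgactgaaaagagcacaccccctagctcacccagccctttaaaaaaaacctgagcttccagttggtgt
Ifit3: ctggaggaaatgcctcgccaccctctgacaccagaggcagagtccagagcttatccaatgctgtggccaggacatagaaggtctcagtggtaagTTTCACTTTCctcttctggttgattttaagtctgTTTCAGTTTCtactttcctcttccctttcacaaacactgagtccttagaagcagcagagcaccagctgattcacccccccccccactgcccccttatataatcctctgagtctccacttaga
Ifit3b: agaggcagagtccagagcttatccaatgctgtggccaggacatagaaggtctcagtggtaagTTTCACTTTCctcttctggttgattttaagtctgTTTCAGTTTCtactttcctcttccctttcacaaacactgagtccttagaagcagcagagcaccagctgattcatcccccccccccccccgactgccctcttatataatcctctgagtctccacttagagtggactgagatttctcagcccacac
Isg15: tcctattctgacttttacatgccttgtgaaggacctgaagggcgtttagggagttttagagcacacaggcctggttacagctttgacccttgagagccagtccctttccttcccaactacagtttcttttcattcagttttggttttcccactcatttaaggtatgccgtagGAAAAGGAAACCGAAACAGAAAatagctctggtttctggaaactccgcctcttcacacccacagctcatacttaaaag

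Ifit1 carried this core at -104 to -95 and again at -85 to -76 from its start. Ifit3 carried it at -156 to -147 and -122 to -113, and Ifit3b at -188 to -179 and -154 to -145. In Isg15 there were 3 overlapping matches on the other strand, from -78 to -57. Ifitm3 had matches after its start, at 2 to 11 and 19 to 28. Over the whole windows, which run 50 bases past the start, the core was present in 5 of 9 windows (5 of the 8 genes), against 3.44% of the 32851 windows in the table. Of these, the windows of Ifit3 and Ifit3b are nearly the same sequence. The GAS motif lay in 3 of the 9 windows, those of Ifit2 (1 of its 2), Ifi35 and Ifitm3, against 8.3% of all windows. In Ifitm3 it overlapped the second ISRE match. These are matches of letters in 1 window and not measured binding.

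**Figure D1:**
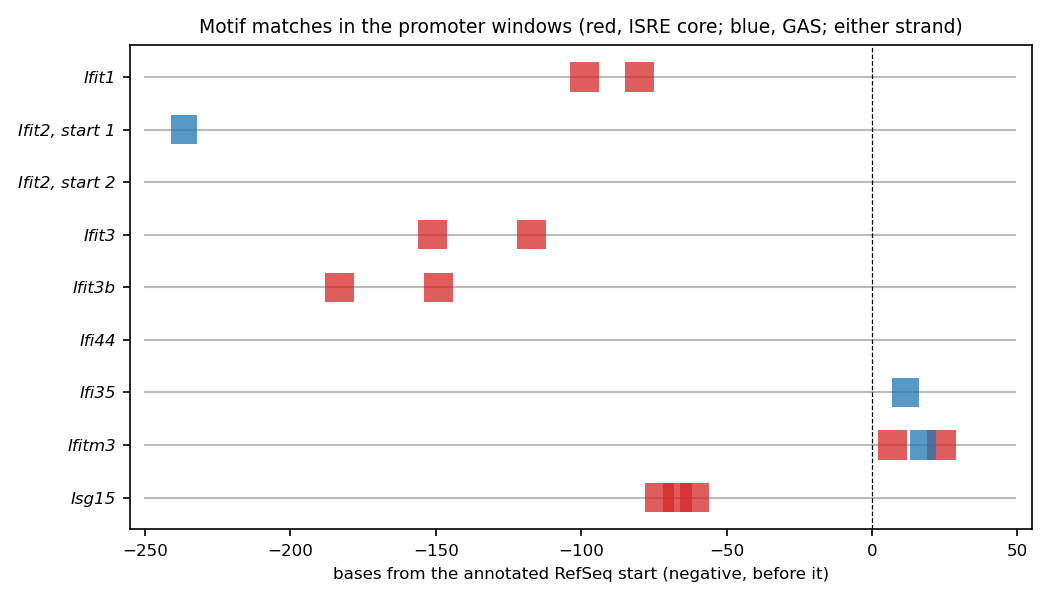
Positions of motif matches in the 9 RefSeq promoter windows of 8 genes, in bases from the annotated start (x axis, negative before it). Red boxes are ISRE core matches, seen in Ifit1, Ifit3, Ifit3b, Ifitm3 and Isg15, and blue boxes are GAS matches, seen in Ifit2, Ifi35 and Ifitm3.

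Ifit3 and Ifit3b are close copies. Their promoter windows matched at 259 of 260 aligned bases (99.6%), and 869 stretches of 50 bases were common to both transcripts, 51.2% of those of Ifit3 and 44.5% of those of Ifit3b. How such shared reads were assigned is not given in the sources used here, so the split of counts between this pair is uncertain. All 4 Ifit genes lie side by side on chromosome 19 of GRCm38, on the plus strand, with Ifit2 at 34550694 to 34576419, Ifit3 at 34583531 to 34588731, Ifit3b at 34607970 to 34613401 and Ifit1 at 34640871 to 34650009 (GENCODE M21). The others lie apart. Isg15 is on chromosome 4 (156199424 to 156200818, minus strand), Usp18 on chromosome 6 (121245906 to 121270917, plus), Ifitm3 on chromosome 7 (141009586 to 141010770, minus), Ifi204 on chromosome 1 (173747293 to 173766943, minus), Ifi35 on chromosome 11 (101448407 to 101458698, plus) and Ifi44 on chromosome 3 (151730922 to 151749960, minus). Ifi35 overlaps the antisense gene Gm11626 and Usp18 the lincRNA Gm44148, each on the other strand. Strand use in counting is not given, so reads of these neighbours cannot be told apart from theirs.

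To see where these genes are read in the absence of antibody, the 4 Het animals were used to set CD11b+ isolates against whole forebrain. All 10 genes were higher in the isolates (edgeR, adjusted p under 0.05), against 37.3% of all 19266 genes tested that were higher, with a median log2 difference of 2.47 where the median of all genes was -0.05. Ifi204, Ifitm3 and Isg15 had the highest fitted differences and Ifit2 and Ifit3b the lowest. In 9 of the 10 genes every isolate lay above every forebrain, against 36% of all genes, and Ifit2 overlapped. Both hemispheres of an animal enter this contrast, and adding a replicate block for the animal also called all 10, with a median of 2.40. Besides microglial markers, those of choroid plexus, endothelial cells, border macrophages, and neutrophils and monocytes were higher in these isolates. The part of each cell type in the difference was not tested.

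Ifi204, the DNA-binding IFI200 protein, had the highest difference of the 10. It measured 0.488, 0.322, 0.650 and 0.341 CPM in the forebrain of Het animals 1, 20, 21 and 23, and 13.2, 31.5, 32.1 and 18.7 CPM in their isolates, a log2 difference of 5.74 (SE 0.40) or 53.6-fold (adjusted edgeR p 5.29e-06). Ifitm3, the membrane restriction factor, went from 2.50, 2.72, 2.56 and 2.37 CPM to 23.2, 39.5, 37.7 and 23.4 CPM in the same animals, 12.2-fold (log2 3.60 (SE 0.23), adjusted edgeR p 3.20e-06). Isg15 was read at 0.457, 0.376, 0.238 and 0.322 CPM in forebrain and at 1.56, 3.83, 5.81 and 2.43 CPM in the isolates (log2 3.27 (SE 0.44), 9.64-fold, adjusted edgeR p 0.000217). Its forebrain values rest on 11 to 29 counts a library. Within each animal the isolate exceeded forebrain in Ifi204 by 5.66 ± 0.75 on the log2 scale in Het (SD, n = 4), 6.12 ± 0.59 in KO (SD, n = 3), 4.61 ± 0.76 with anti-gp120 and 5.26 ± 0.26 with anti-IL34 (SD, n = 4 each).

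Ifi35 was 8.54-fold higher in isolates (log2 3.09 (SE 0.27)) and Usp18, the ISG15 protease, 7.36-fold (log2 2.88 (SE 0.32)). Their adjusted edgeR p-values were 1.66e-05 and 6.67e-05. Ifit3, Ifit1 and Ifi44 formed a middle group at log2 differences of 2.07 (SE 0.31), 1.78 (SE 0.27) and 1.73 (SE 0.31).

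Ifit2 had the smallest difference, with 11.8, 11.9, 13.5 and 11.0 CPM in forebrain beside 12.9, 27.8, 21.4 and 14.3 CPM in the isolates. Its log2 difference was 0.66 (SE 0.24) with an adjusted edgeR p of 0.0358. Ifit3b had 0.86 (SE 0.33) and 0.0398. These calls depend on single animals: leaving out Het 20, 21 or 23 gave Ifit2 adjusted edgeR p-values of 0.117, 0.0621 and 0.0562 and Ifit3b 0.0797, 0.0853 and 0.0547. The other 8 genes kept their calls whichever Het animal was left out.

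With the antibody against IL34, levels of all 10 genes were higher than with anti-gp120 in both tissues, by fitted folds of 1.66 to 5.15 in forebrain and 1.52 to 6.66 in the isolates. The genes were chosen on this contrast, so the values and counts describe that choice, carry no test, and nothing is read from how many genes passed. In edgeR's fit across all genes 8 of the 10 were called higher in forebrain (0.192% of 17143 genes were) and 0 in the isolates (0.0228% of 17570). In the isolates 9 had an unadjusted edgeR p under 0.05 (25.9% of all genes), and DESeq2 called 9, along with 1868 of 29795 genes in either direction. Fitted differences were above 0 for 50.3% of all genes in forebrain and 54.7% in the isolates. The median log2 difference was 1.85 in forebrain (0.00 over all genes) and 2.30 in the isolates (0.06 over all genes).

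**Figure D2:**
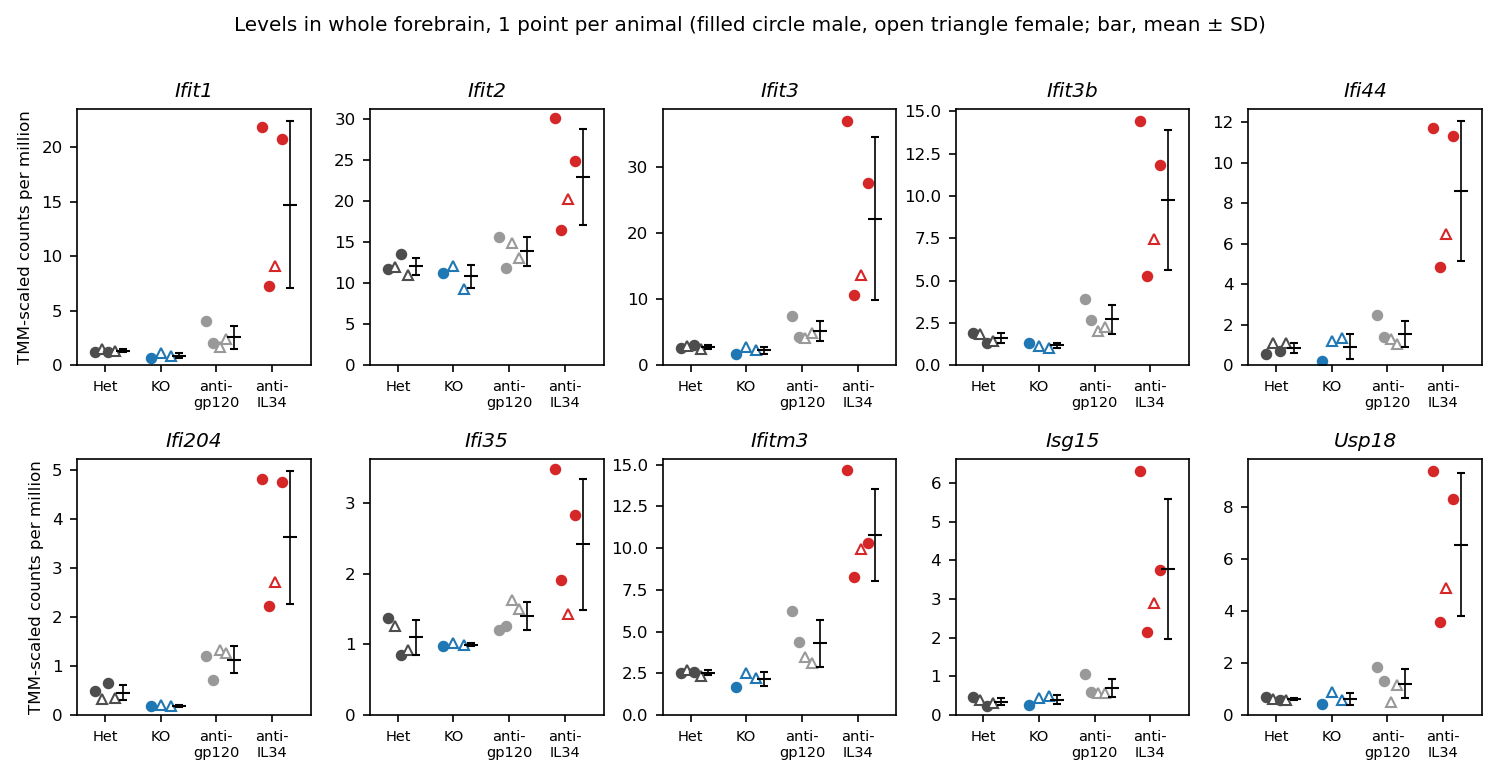
TMM-scaled CPM of each gene in whole forebrain (y axis, from 0), 1 point per animal, by arm; filled circles are males, open triangles females, and bars mean ± SD. Anti-IL34 animals lie above every anti-gp120 animal in 9 of the 10 genes, while Het and KO points intermix in 8.

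**Figure D3:**
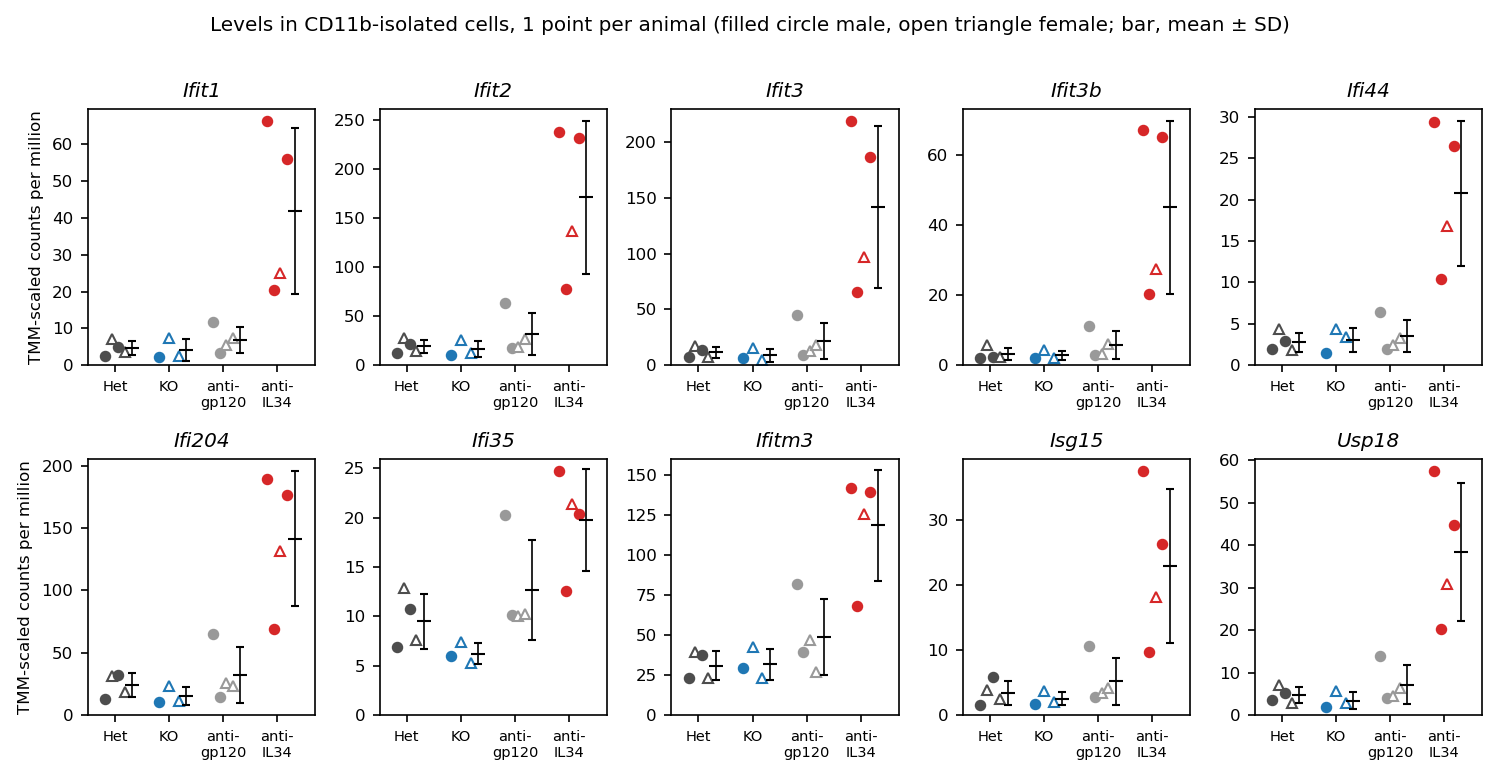
The same plot for CD11b-isolated cells. Anti-IL34 animals lie above every anti-gp120 animal in 7 of the 10 genes, anti-gp120 animal 1 is the highest of its arm in all 10, and Het and KO overlap in all 10.

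Ifit1, which binds the 5′ end of foreign RNA, measured 4.10, 2.01, 1.69 and 2.42 CPM in the forebrain of anti-gp120 animals 1, 7, 8 and 15 and 21.9, 7.27, 9.07 and 20.8 CPM in anti-IL34 animals 2, 10, 11 and 24. In the isolates of the same animals it measured 11.6, 3.19, 5.59 and 7.33 CPM and 66.2, 20.5, 25.0 and 55.9 CPM. In both tissues the arms did not overlap, and animals 2 and 24 were well above 10 and 11. The fitted log2 differences were 2.37 (SE 0.37) in forebrain and 2.41 (SE 0.50) in the isolates.

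Ifit2, known to restrict vesicular stomatitis virus in mouse neurons, had unequal values in the tissues. Forebrain values were 15.6, 11.8, 14.9 and 13.1 CPM with anti-gp120 and 30.1, 16.5, 20.2 and 24.8 CPM with anti-IL34, animals in the order above. The isolates held 63.8, 17.8, 19.0 and 26.4 CPM and 238, 77.7, 136 and 232 CPM. The arms were apart in both tissues, with log2 differences of 0.73 (SE 0.19) and 2.32 (SE 0.48), and the difference between the tissues was not tested. Taken within each animal, the isolate exceeded forebrain by 1.00 ± 0.74 on the log2 scale (SD, n = 4) with anti-gp120 and 2.80 ± 0.42 (SD, n = 4) with anti-IL34.

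Ifit3, another IFIT family member, stood at 7.45, 4.30, 4.14 and 4.85 CPM against 36.9, 10.6, 13.6 and 27.5 CPM in forebrain. The isolates gave 44.9, 9.32, 12.7 and 18.4 CPM against 218, 65.2, 97.2 and 187 CPM. For its copy Ifit3b the forebrain values were 3.91, 2.69, 2.01 and 2.25 CPM and 14.4, 5.27, 7.44 and 11.9 CPM. No anti-IL34 animal overlapped the controls for either gene in that tissue. In the isolates Ifit3b went from 11.2, 2.82, 3.19 and 5.91 CPM to 67.2, 20.3, 27.5 and 64.9 CPM, the highest fitted fold of the 10 genes there at 6.66 (log2 2.74 (SE 0.53)). The other fitted log2 differences were 1.72 (SE 0.30) for Ifit3b in forebrain and 1.96 (SE 0.36) and 2.57 (SE 0.54) for Ifit3 in forebrain and isolates.

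Isg15, the tag itself, measured 1.05, 0.586, 0.564 and 0.577 CPM and 6.32, 2.15, 2.91 and 3.75 CPM in forebrain, with no overlap. In the isolates anti-gp120 animal 1 reached into the treated range, with values of 10.6, 2.75, 3.32 and 4.13 CPM against 37.5, 9.71, 18.1 and 26.2 CPM. The fitted log2 differences were 2.30 (SE 0.36) and 2.00 (SE 0.50). Usp18, which takes the tag off and damps the receptor, followed a like course. Its forebrain levels were 1.85, 1.32, 0.501 and 1.15 CPM and 9.38, 3.59, 4.88 and 8.32 CPM. The isolates held 13.8, 4.07, 4.42 and 6.43 CPM and 57.4, 20.2, 30.8 and 44.7 CPM, so that the arms were apart in both tissues. Log2 differences were 2.26 (SE 0.33) and 2.29 (SE 0.44).

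Ifitm3, which acts at endosomal membranes, showed a smaller fold. Forebrain held 6.23, 4.36, 3.45 and 3.12 CPM with anti-gp120 and 14.7, 8.25, 9.96 and 10.3 CPM with anti-IL34, and the isolates 82.0, 39.2, 46.9 and 26.9 CPM and 142, 67.9, 126 and 139 CPM. In the isolates anti-IL34 animal 10 lay below anti-gp120 animal 1, so the arms overlapped. Its fold was 2.37 in forebrain and 2.38 in the isolates (log2 1.24 (SE 0.21) and 1.25 (SE 0.35)).

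Ifi204 went from 1.21, 0.714, 1.32 and 1.27 CPM to 4.81, 2.22, 2.71 and 4.75 CPM in forebrain. The isolates held 65.2, 14.1, 25.5 and 23.4 CPM and 189, 69.2, 131 and 176 CPM. The lowest anti-IL34 isolate, animal 10, was just above the highest control, animal 1. The log2 differences were 1.73 (SE 0.33) and 2.08 (SE 0.49).

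Ifi44 measured 2.50, 1.37, 1.32 and 1.04 CPM and 11.7, 4.85, 6.51 and 11.3 CPM in forebrain and 6.39, 2.00, 2.41 and 3.32 CPM and 29.4, 10.4, 16.8 and 26.4 CPM in the isolates. Both tissues kept the arms apart, with log2 differences of 2.32 (SE 0.32) and 2.42 (SE 0.43). Ifi35 had the least difference of the 10 in the isolates, and its arms overlapped in both tissues. Its values were 1.21, 1.26, 1.63 and 1.50 CPM and 3.49, 1.91, 1.43 and 2.83 CPM in forebrain. In the isolates they were 20.3, 10.1, 10.1 and 10.2 CPM and 24.8, 12.5, 21.4 and 20.4 CPM. The log2 differences were 0.80 (SE 0.29) and 0.60 (SE 0.29).

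Over the 10 genes the arms did not overlap for 9 in forebrain (1.03% of all genes were higher without overlap) and 7 in the isolates (4.78%), and the exceptions were Ifi35 in forebrain and Ifi35, Ifitm3 and Isg15 in the isolates. These counts too describe the contrast the genes were chosen on. The direction held in every fit that left out 1 animal, while the number past the threshold did not. In forebrain it was 0 without anti-IL34 animal 11, the only female of that arm, and leaving out anti-gp120 animals 7, 8 and 1 in turn gave 1, 3 and 5, while 5 passed without anti-IL34 animal 24. Over all genes 25 to 126 passed in those forebrain fits, against 123 with every animal. In the isolates it was 9 without anti-gp120 animal 15, where 6905 of all 17071 genes passed against 110 with every animal, and 0 without any other animal, where 0 to 514 of all genes passed.

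Markers of other cells were read beside these values. The summed microglial markers of the isolates were lower with anti-IL34, at 5458 to 8643 CPM against 13367 to 17693 CPM, while the 10 genes were higher. Neutrophil and monocyte markers summed to 44.7 to 294 CPM with anti-gp120 and 140 to 450 CPM with anti-IL34 in the isolates, where Ly6g, a defining neutrophil marker, ran from 0 to 1.62 and from 0.501 to 1.47 CPM. In forebrain they summed to 1.50 to 4.28 and 1.44 to 4.63 CPM, with Ly6g at no more than 1 count in any library of these arms. T and NK cell markers gave 3.63 to 6.83 and 3.88 to 6.54 CPM, nearly all of it Cd4 (3.44 to 6.57 and 3.19 to 6.26 CPM), while Cd3e and Cd3d had at most 4 counts in a library of these isolates, with Cd8a at 0 in the anti-gp120 isolates and at no more than 1 count in the anti-IL34 isolates, and B cell markers 0.664 to 1.24 and 0.877 to 1.98 CPM. The 4 plasmacytoid dendritic cell markers, a cell type known for making interferon, summed to 1.37 to 2.08 CPM with anti-gp120 and 2.76 to 4.05 CPM with anti-IL34 in the isolates, without overlap. Most of that sum was 1 gene, Cox6a2 (1.22 ± 0.447 and 2.59 ± 0.707 CPM, SD, n = 4 each), which forebrain held at 1.69 ± 0.420 and 1.65 ± 0.316 CPM (SD, n = 4 each), and Ly6d and Klk1 had at most 4 and 2 counts in an anti-IL34 isolate. Neuronal markers there ran from 158 to 484 and 368 to 627 CPM, and oligodendrocyte markers from 3675 to 9140 and 5703 to 12104 CPM. Astrocyte markers ran from 1055 to 3399 and 2057 to 3489.6 CPM, and endothelial markers from 514 to 874 and 589.8 to 945 CPM. Border macrophage markers ran from 518 to 986 CPM with anti-gp120 and 358 to 522 CPM with anti-IL34. In forebrain they ran from 16.1 to 25.0 and 6.86 to 15.7 CPM, without overlap, and the sums of the other lists but the microglial one overlapped there. Choroid plexus markers of the isolates stood at 3.82 to 6.76 CPM with anti-gp120 and 3.43 to 2159 CPM with anti-IL34, above every anti-gp120 isolate in 3 of the 4 animals. The part of these cells in the levels of the 10 genes was not tested.

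Deletion of Il34 was compared next, in the animals of the genotype experiment. In forebrain 0 of the 10 genes passed edgeR's test in KO against Het, where 0.62% of 19343 genes did. Unadjusted edgeR p was under 0.05 for 2 of them, Ifit1 and Ifi204, against 7.45% of all genes, and DESeq2 called 0 (2 unadjusted). Fitted differences were below 0 for 8 of the 10, where 49.9% of all genes were above 0, and the median was -0.21 against 0.00 over all genes.

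**Figure D4:**
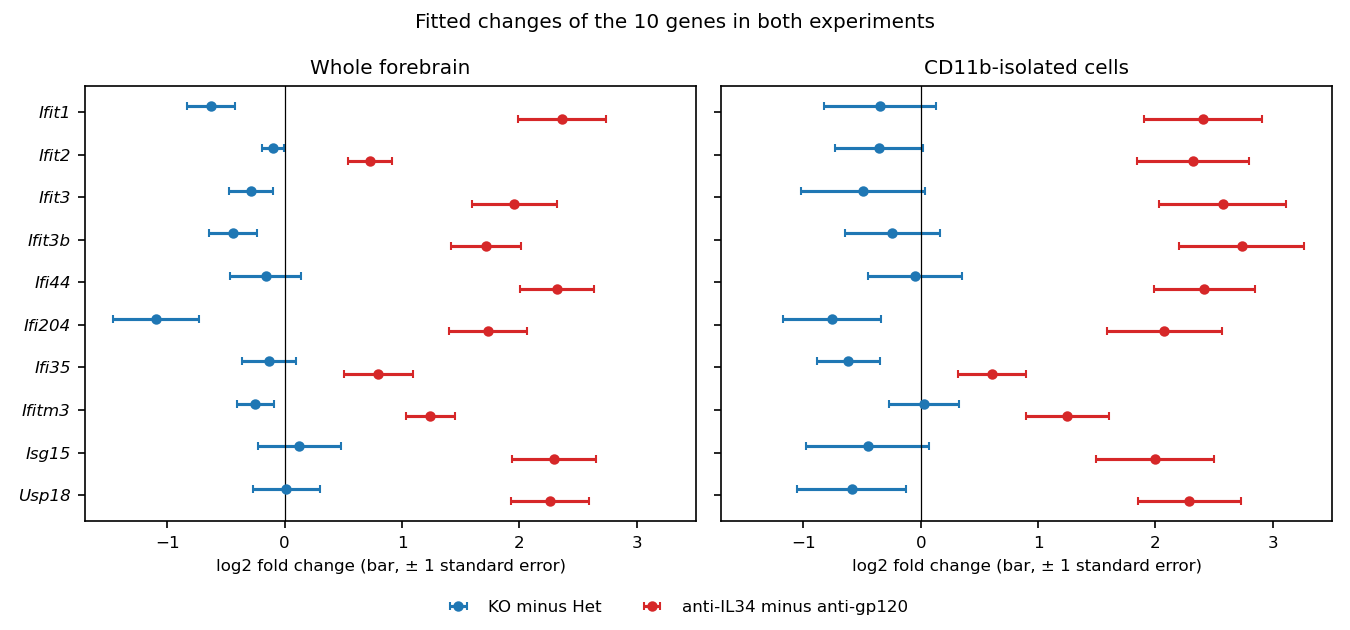
Fitted log2 fold changes of the 10 genes (x axis, bars ± 1 standard error) in KO minus Het (blue) and anti-IL34 minus anti-gp120 (red), for forebrain (left) and CD11b-isolated cells (right). All red points lie above 0, from 0.60 to 2.74, and the blue points run from -1.10 to 0.13.

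Ifit1 measured 0.622, 1.11 and 0.854 CPM in the forebrain of KO animals 3, 6 and 24, below the 4 Het animals at 1.21, 1.49, 1.19 and 1.34 CPM. Its log2 difference was -0.63 (SE 0.21), 95% interval -1.07 to -0.18, and it did not pass after adjustment over all genes (edgeR adjusted p 0.428). Ifi204 was at 0.178, 0.200 and 0.180 CPM in KO, from 4 to 11 counts a library, below all Het animals given above. Its log2 difference was -1.10 (SE 0.37), interval -1.89 to -0.30, with an adjusted edgeR p of 0.443. These were the only 2 of the 10 with groups that did not overlap, where 5.14% of all genes were lower in KO without overlap. Ifi204 also had the highest isolate-over-forebrain difference of the 10, and 7 of 8 microglial markers were lower in KO forebrain by edgeR's adjusted p. Summed oligodendrocyte markers were lower there without overlap, at 3631 to 3936 CPM in KO and 4554 to 5339 CPM in Het. So were endothelial markers, at 137.2 to 138.8 CPM in KO and 140.7 to 154.1 CPM in Het. The part of these cells in the Ifi204 value was not tested.

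The remaining 8 genes overlapped between KO and Het forebrain. Ifit3b measured 1.33, 1.14 and 1.03 CPM in KO and had a log2 difference of -0.44 (SE 0.20), Ifit3 1.66, 2.80 and 2.25 CPM and -0.29 (SE 0.18). Ifitm3 measured 1.69, 2.51 and 2.25 CPM and differed by -0.25 (SE 0.16). For Ifit2 the interval was narrow, -0.31 to 0.11 around -0.10, with 11.2, 12.02 and 9.25 CPM in KO. Wide intervals were left for the low-count genes, namely -0.64 to 0.90 for Isg15 (0.348 ± 0.0918 CPM in Het, SD, n = 4, and 0.399 ± 0.118 in KO, SD, n = 3) and -0.61 to 0.63 for Usp18 (0.623 ± 0.0505 and 0.623 ± 0.231 CPM). Ifi35 differed by -0.13 (SE 0.23) and Ifi44 by -0.16 (SE 0.30). Ifi44 in KO was 0.207, 1.22 and 1.35 CPM, low in the male animal 3 and high in both females, and without the sex term its sign turned, to 0.13. The lowest adjusted edgeR p of the 10 was that of Ifit1.

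In the isolates of the genotype experiment 0 of the 10 passed (edgeR), where 5.37% of 18185 genes did, and 0 had an unadjusted p under 0.05, where 32.6% did. That 5.37%, or 976 genes, rests on single animals: 0 of all genes passed without Het 20, Het 23 or any 1 KO animal, 5756 without Het 1 and 3115 without Het 21, and 0 of the 10 passed in each of these fits. DESeq2 called 0 of the 10 (1 unadjusted), where it called 3710 of all 29396 genes. Het and KO overlapped for all 10 genes, where 18% of all genes were higher and 19.7% lower in KO without overlap, and 9 of the fitted differences were below 0 (51.4% of all genes were above 0), with a median of -0.40 against 0.02 over all genes. Ifi204 measured 10.5, 23.2 and 11.2 CPM in KO animals 3, 6 and 24 and had the most negative difference, -0.75 (SE 0.42), interval -1.74 to 0.24. Ifi35 followed, at 6.00, 7.39 and 5.30 CPM in KO beside 6.88, 12.9, 10.7 and 7.57 CPM in Het animals 1, 20, 21 and 23, and -0.62 (SE 0.27), interval -1.26 to 0.02 and the lowest adjusted edgeR p of the 10, 0.160. KO animal 6 was the highest of its arm in all 10 genes.

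Ifit1 was 2.17, 7.44 and 2.49 CPM in KO and 2.63, 7.08, 4.86 and 3.64 CPM in Het isolates, a log2 difference of -0.35 (SE 0.48). Usp18 was 1.89, 5.59 and 2.72 CPM in KO and 3.59, 7.14, 5.21 and 2.76 CPM in Het, a difference of -0.59 (SE 0.46). For Isg15, at 1.77, 3.75 and 2.08 CPM in KO, it was -0.45 (SE 0.52). KO animal 6 was well above animals 3 and 24 in each of these genes. Ifit3 (-0.49 (SE 0.53)), Ifit2 (-0.36 (SE 0.37)) and Ifit3b (-0.24 (SE 0.41)) had intervals that reached -1.74, -1.24 and -1.21 at the low end and 0.77, 0.53 and 0.73 at the high end. Ifi44 and Ifitm3 were close to even, at -0.05 (SE 0.40) and 0.03 (SE 0.30).

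Whether the effect of deletion differed between isolates and forebrain was tested as an interaction over the 14 libraries. None of the 10 genes passed by edgeR (2.98% of 20107 genes did), and DESeq2 called 0. The unadjusted p was under 0.05 for 0 of the 10 by either tool and for 31% of all genes by edgeR. The differences ran from -0.54 for Isg15 to 0.38 for Ifi204, and the lowest adjusted edgeR p was 0.436, for Ifi35. With the animal as a replicate block 0 of all 20107 genes passed, the 10 included. Over all genes 599 passed without the block, 0 when Het 20, Het 23 or any 1 KO animal was left out, 5688 without Het 1 and 3243 without Het 21.

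Side by side, the antibody and the deletion gave different values for the same genes. In forebrain Ifit1 stood at 2.37 with the antibody and -0.63 with deletion on the log2 scale, Ifi204 at 1.73 and -1.10, and Isg15 at 2.30 and 0.13. In the isolates the pairs were 2.41 and -0.35, 2.08 and -0.75, and 2.00 and -0.45. This difference between the experiments was not tested, since the genes were chosen on the antibody arms.

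The 4 arms can be put in order by mean level, where the place of anti-IL34 above anti-gp120 is fixed by the choice of genes. In forebrain KO, Het, anti-gp120 and anti-IL34 stood in rising order for 7 of the 10 genes, and Het and KO changed places for Ifi44, Isg15 and Usp18. In the isolates the first order held for 8, with Ifi44 and Ifitm3 the exceptions. Ifit1 in forebrain, for one, was 0.861 ± 0.243 CPM in KO (SD, n = 3), 1.31 ± 0.136 in Het, 2.56 ± 1.07 with anti-gp120 and 14.8 ± 7.65 with anti-IL34 (SD, n = 4 each). In the isolates it was 4.03 ± 2.96, 4.55 ± 1.91, 6.93 ± 3.55 and 41.9 ± 22.6 CPM, and the neighbours KO, Het and anti-gp120 overlapped.

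The control arms were not level with each other. Anti-gp120 forebrains lay above all Het forebrains for 6 genes, Ifit1, Ifit3, Ifit3b, Ifi204, Ifitm3 and Isg15, where 3.06% of all genes did so. The ratio of the arm means was 1.95 for Ifit1, 2.00 for Isg15 and 2.50 for Ifi204. In the isolates 0 of the 10 did so (2.06% of all genes). Genotype, antibody and experiment differ together between these arms and cannot be told apart. Their forebrains also differed in summed microglial markers, at 352 to 431 CPM with anti-gp120 and 220 to 252 CPM in Het. Choroid plexus markers summed to 6.52 to 57.8 and 142 to 186 CPM in these forebrains, and to 3.82 to 6.76 and 1657 to 3824 CPM in the isolates. The part of these cells in the difference was not tested. The anti-IL34 animals lay above every KO animal in 10 of 10 genes in forebrain (5.38% of all genes) and 10 of 10 in the isolates (16.4%). High levels with anti-IL34 were in view when the genes were chosen, so this count is a description and nothing is read from it.

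The anti-IL34 animals stood in nearly the same order in most of the genes. Among anti-IL34 animals the order 10, 11, 24 and 2, from low to high, was seen in 9 of the 10 genes in forebrain and in 9 in the isolates, and animal 2 was the highest in 10 of 10 in both. In the other arms the most common order held for 4 genes in Het, 6 in KO and 3 in anti-gp120 forebrain and for 6, 7 and 7 in their isolates. The order was the same in both tissues for 9 genes with anti-IL34, 3 in KO and 0 in Het and anti-gp120, and the difference between the arms was not tested. KO has 3 animals and so fewer possible orders than the arms of 4. The 10 genes move together across libraries, so these counts are not separate observations. The share of all genes with the same order was not computed. The mean log2 CPM of the 10 genes was 2.31, 2.61, 3.30 and 3.59 in the forebrain of animals 10, 11, 24 and 2, and 4.79, 5.47, 6.11 and 6.31 in their isolates. The libraries come from separate hemispheres of an animal, so the order was found again in separate RNA. Library depth in the same order was 43.1, 19.6, 21.7 and 15.1 M counts in forebrain and 46.4, 49.3, 17.5 and 20.7 M in the isolates, so the lowest animal had the deepest forebrain library and the highest animal the shallowest. The part of depth was not tested.

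Choroid plexus markers ran the other way in those isolates, at 2159, 578, 33.3 and 3.43 CPM in animals 10, 11, 24 and 2, beside 3.82 to 6.76 CPM with anti-gp120. Their part in the order was not tested. With anti-gp120, animal 1 was the highest in 8 genes in forebrain and 10 in the isolates, with mean log2 CPM of 1.64 and 4.51 beside 0.95 to 1.07 and 2.76 to 3.35 in the other 3. Het forebrains spread little, from 0.31 to 0.48, and Het isolates from 2.35 to 3.52. KO animals 3, 6 and 24 had -0.28, 0.35 and 0.20 in forebrain and 2.13, 3.30 and 2.28 in the isolates.

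**Figure D5:**
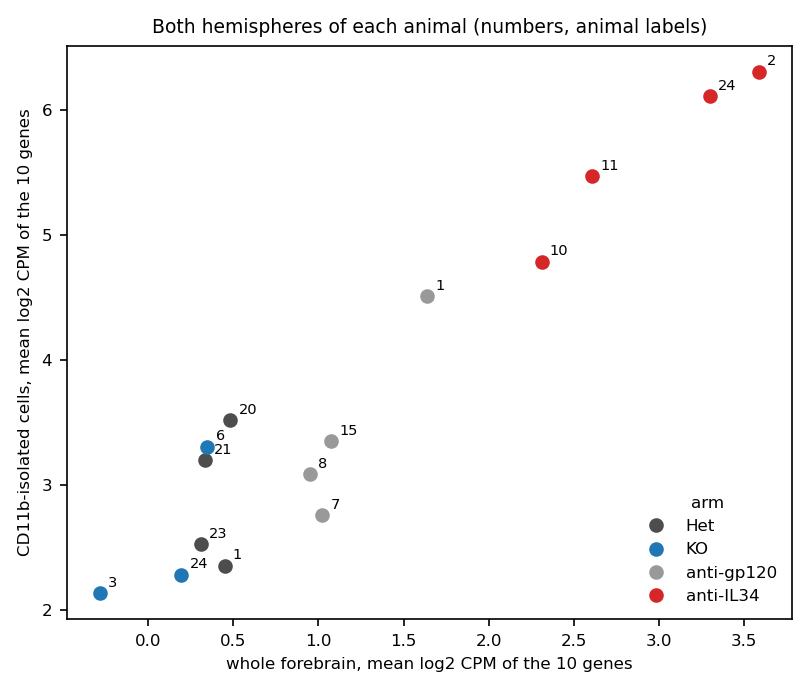
Mean log2 CPM of the 10 genes in whole forebrain (x axis) and in CD11b-isolated cells (y axis), 1 point per animal, coloured by arm and numbered by animal. The 4 anti-IL34 animals lie at the upper right, from 2.31 and 4.79 (animal 10) to 3.59 and 6.31 (animal 2), and anti-gp120 animal 1 is the next highest in forebrain at 1.64.

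Across the 15 libraries of a tissue each gene followed the mean of the other 9. As a description, with arms and animals shared by all points, Pearson's r ran from 0.874 (Ifi35) to 0.995 (Ifit3) in forebrain and from 0.915 (Ifi35) to 0.998 (Ifit2) in the isolates. The genes outside the 10 most like their mean in forebrain, of 19724, were Rnf213 (0.987), Lgals3bp (0.985), Rsad2 (0.983), Rtp4 (0.982), Mx1 (0.982) and Irf9 (0.979). In the isolates, of 18732, they were Oasl2 (0.992), Ifi209 (0.989), Rtp4 (0.988), Zbp1 (0.986), Rsad2 (0.985) and Slfn9 (0.984). Rtp4 and Rsad2 are on both lists. The 15 libraries include the anti-IL34 arm, whose high levels were in view when the genes were chosen. High r was partly set by that choice, so nothing is read from it, and no r within an arm was computed.

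The rest of the interferon pathway was read from lists of ligands, receptors and signal carriers, sensors, ISG15 enzymes, relatives and other induced genes. Of 21 ligand genes, 16 had 0 counts in every forebrain library and 13 in every isolate. Ifnb1, the gene of interferon beta, had 0 counts in all 15 forebrains, which allows a level of up to 0.199 CPM (3 counts) in the shallowest. In the isolates it was read at 0.355 ± 0.377 CPM in Het (SD, n = 4), 0.226 ± 0.193 CPM in KO (SD, n = 3), 0.424 ± 0.0629 CPM with anti-gp120 and 1.40 ± 0.339 CPM with anti-IL34 (SD, n = 4 each). The 4 anti-IL34 isolates, at 1.09 to 1.80 CPM and at most 51 counts, lay above the anti-gp120 isolates at 0.362 to 0.506 CPM (a 3.02-fold fitted difference, log2 SE 0.26, adjusted edgeR p 0.0485). That call was kept in 1 of 8 leave-one-animal-out fits, the one without anti-gp120 animal 15. No other ligand passed 11 counts in any library, the most being for Ifng, and 2 counts was the most in forebrain. Irf8, a transcription factor of the signal list, also had 0 counts in every forebrain and in the Het, KO and anti-IL34 isolates. Whether a 0 in these counts is absence of the RNA or a gene lost in counting was not tested.

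Both genes of the type I interferon receptor had forebrain differences near 0. Ifnar1 was 59.6 ± 1.82 CPM in anti-gp120 forebrain and 60.1 ± 2.12 CPM with anti-IL34 (SD, n = 4 each), a log2 difference of 0.03, and Ifnar2 differed by 0.02. Irf7, a transcription factor that amplifies interferon production, went from 1.28 ± 0.681 to 6.44 ± 2.11 CPM in forebrain and from 17.2 ± 15.5 to 92.7 ± 37.5 CPM in the isolates (SD, n = 4 each), with log2 differences of 2.17 and 2.38 and no overlap. Irf9 (0.86) and Stat2 (0.54) were higher without overlap and Irf5 (-0.82) and Ifngr1 (-0.47) lower. Of this list 3 of 19 genes passed higher in forebrain by edgeR and 0 lower, where 0.192% of all genes passed higher and 0.525% lower.

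Among the sensors of viral nucleic acid, Rigi (1.08) and Ifih1 (1.08) were higher with anti-IL34 in forebrain and Sting1 (-1.24) and Tlr7 (-0.59) lower, all without overlap, and 1 of 11 passed in each direction. The ISG15 enzymes Ube2l6 (0.56) and Trim25 (0.47), which pass the tag on to proteins, were higher without overlap and 0 of 4 passed by edgeR in either direction (3 at an unadjusted p under 0.05). Relatives of the 10 had a median of 0.64 over 12 genes in forebrain, with Ifi207 at 1.88 and Ifi203 at 1.11. Other induced genes had a median of 1.15 over 31, of which 14 passed higher and 0 lower, led by Oasl2 (2.95), Cxcl10 (2.55) and Rsad2 (2.31). Of the 20 genes of these lists that passed in forebrain by edgeR, 3 passed in all 8 leave-one-animal-out fits, namely Bst2, Lgals3bp and Oasl2, and the other 17 were lost without anti-IL34 animal 11.

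In the isolates of the antibody experiment the medians were -0.33 for receptors and signal carriers, -0.27 for sensors, 0.69 for ISG15 enzymes, 1.44 for relatives and 1.28 for other induced genes. Ifi206 (2.56), Ifi208 (2.26) and Cxcl9 (3.17) had the highest values of their lists among genes without overlap, and Ifitm10 (-1.32) was lower. Of the other induced genes 2 of 37 passed higher by edgeR (0.0228% of all genes did), Cxcl9 and Cmpk2, which kept that in 1 and 2 of 8 leave-one-animal-out fits. These lists were drawn up with results of these animals known, so their counts in the antibody arms are no separate evidence of direction.

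With deletion the medians of the same 5 lists, in that order, were -0.02, -0.25, 0.01, -0.17 and -0.20 in forebrain. Tlr7, the sensor of single-stranded RNA, fell by 1.04 on the log2 scale (edgeR adjusted p 0.0174) and B2m, the light chain of MHC class I, by 0.28 (adjusted edgeR p 0.0343), where 0.615% of all genes passed lower. Tlr7 kept its call in 2 and B2m in 1 of the 7 leave-one-animal-out fits, with adjusted edgeR p up to 0.0857 and 0.496. Tlr7 was lost without Het 1, Het 20 or any KO animal, and B2m without any animal but Het 20. In KO isolates the medians were -0.72, -1.22, -0.74, -0.27 and -0.81, and 11 genes of these lists passed lower by edgeR and 0 higher, where 5.22% of all genes passed lower.

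Of the sensors 5 of 11 fell in KO isolates, namely Sting1 (-1.49), Cgas (-1.36), Tlr9 (-1.56), Aim2 (-1.39) and Tlr7 (-1.56 on the log2 scale), with adjusted edgeR p from 0.0136 to 0.0477. The others were Ifngr1 (-1.29) and Irf2 (-0.72) among receptors and signal carriers, Uba7 (-1.36), the enzyme that activates ISG15, Ifitm10 (-1.50) among the relatives, and Slfn8 (-1.34) and Mx2 (-0.70) among other induced genes. Each of these 11 lost its call without Het 20, Het 23 or any 1 KO animal and kept it without Het 1 or Het 21. Microglial markers fell in the same isolates in 8 of 8 cases by edgeR, to 3997 to 4322 CPM from 10377 to 17997 CPM in sum. Astrocyte markers were higher there without overlap, at 2625 to 2853 CPM in KO and 774 to 2244 CPM in Het, and neuronal markers summed to 284 to 503 and 86.8 to 329 CPM, with 0 of 4 genes of either list past edgeR's threshold (2 and 1 of 4 at an unadjusted p under 0.05). Oligodendrocyte markers summed to 7241 to 16398 CPM in KO and 2702 to 9200.5 CPM in Het. The part of these cells in the values was not tested. In Het animals 20 of 21 receptor and signal genes, 11 of 11 sensors, 4 of 4 ISG15 enzymes, 14 of 17 relatives and 35 of 36 other induced genes were higher in the isolates than in forebrain by edgeR, as the 10 genes were, where 37.3% of all genes were.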

How the data were processed

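RNA was measured in 30 libraries of 15 mice, 1 forebrain and 1 CD11b+ isolate each. The authors deposited raw counts per gene, whole numbers with unequal library totals. STAR 2.7.5c, featureCounts 1.6.3, R 4.4.0 and GRCm38 are named in the submitters' processing notes, without their roles. The deposited Length column, a unit outside the expression units, was equal to the gene span with introns for 9 of the 10 genes, and was not used to scale levels. The authors also deposited a TPM table, not used here, because the counts keep the depth. 6 count columns matched no labelled sample and were left out, and 8 genes had no name. Groups came from the labels, and the sample sheet matched them for 30 of 30 libraries. Over 42 pairs of replicates, chi-square per degree of freedom was at least 5.84, so none was counted as a copy.

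Counts were fitted with edgeR 4.0.16 in R 4.3.3 (glmQLFit and glmQLFTest, TMM, filterByExpr on the group, sex as covariate, Benjamini-Hochberg over all genes tested, threshold 0.05), using only the libraries of 1 tissue and 1 experiment for a comparison of arms. All 10 genes passed the filter in each of the fits reported. The isolate-over-forebrain contrast used the 4 Het animals, and the tissue difference of the deletion effect was an interaction over the genotype libraries with sex by tissue. Standard errors follow from each log2 fold change and its F value, and intervals are 95%. Levels are CPM with TMM factors over 30 libraries, and log2 values add a prior count of 0.5. The fits were tested on simulated data. The libraries of an animal are paired by its number. Deviations from group means correlated at a median of 0.0887 within the 7 genotype animals (0.0192 to 0.162, above 0.1 in 3) and -0.0536 between animals. DESeq2 1.42.0, RLE size factors, no count filter, no sex term, all 15 libraries of a tissue, the animal block, 8 control animals and leaving out each animal were alternatives.

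Promoter windows are from RefSeq (GRCm38.p6) and gene spans from GENCODE M21, read with Python 3.11.15, Biopython 1.88 and matplotlib 3.10.9. A count of 0 allows up to 3 counts, and this covers counting error only. Named genes were all 10 members, up to 6 pathway genes per list and comparison (the smallest p in tested contrasts, the highest absolute log2 fold change without overlap in the antibody arms) and the 6 genes per tissue most like the mean of the 10. The named genes outside this rule, Ifnar1, Ifnar2, Irf8, Cmpk2 and Bst2, and the markers Ly6g, Cd4, Cd8a, Cd3e, Cd3d, Cox6a2, Ly6d and Klk1, were chosen after their values were seen. The members and lists were chosen with earlier results of these data known. Of the genes that the rule names, 1 is not reported here.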

Additional observations from a re-analysis of the deposited data

Results flagged for a closer look

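In 60 groups of 4 animals (10 genes, 6 groups), 3 had 1 animal far from the other 3 by Dixon's test, where chance gives about 1 in 20. Ifit3b in the isolates of Het animal 20 was 5.72 CPM, and the nearest of the other 3 was 2.43 CPM. Ifi35 in the isolates of anti-gp120 animal 1 was 20.3 CPM, beside 10.2 CPM for the nearest. Isg15 in the forebrain of the same anti-gp120 animal 1 was 1.05 CPM, beside 0.586 CPM.

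The experiments gave opposite directions without overlap of the arms for 2 genes in forebrain. Ifit1 had a log2 fold change of -0.63 with deletion and 2.37 with the antibody, and Ifi204 -1.10 and 1.73. Neither deletion difference passed (adjusted edgeR p 0.428 and 0.443), and Ifi204 in KO forebrain rests on 4 to 11 counts a library. Of all genes, 5.14% were lower without overlap in KO forebrain and 1.03% higher without overlap with the antibody. The share with both was not computed. The difference between the experiments was not tested, the genes having been chosen on the antibody arms.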

How the results depend on the processing

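Of the recomputed values, 818 kept their side of the threshold or stayed within the spread between animals, and the 26 that turned their sign were all in KO minus Het or its tissue difference, where 0 of the 10 genes passed under any setting run. In forebrain these were Ifi44 (0.13 without the sex term, 0.10 over 15 libraries, 0.25 without KO 3), Usp18 (-0.0122 by DESeq2, -0.04 without Het 20, -0.10 without Het 23, -0.32 without KO 6) and Isg15 (-0.00489 without Het 23). In isolates they were Ifi44 (0.16 without the sex term, 0.16 over 15 libraries, 0.19 without Het 20, 0.14 without Het 21, 0.35 without KO 3), Ifitm3 (-0.04 without Het 1, -0.13 without Het 23, -0.23 without KO 6), Ifit3b (0.17 without Het 20, 0.000612 without KO 24) and Isg15 (0.0207 without Het 21). In the tissue difference they were Ifit3 (0.15 without Het 20, 0.02 without Het 21, 0.18 without KO 24), Isg15 (0.0270 without Het 21), Ifi44 (-0.00407 without Het 23), Ifit1 (-0.12 without KO 6) and Ifit3b (-0.12 without KO 6). Over the fits that each leave out an animal, the other ends of the ranges were 0.400 (Isg15) and 0.337 (Usp18) in forebrain, -0.559 (Ifit3b), -0.414 (Ifi44), 0.230 (Ifitm3) and -0.819 (Isg15) in isolates, and 0.587 (Ifit1), -0.647 (Ifit3), 0.495 (Ifit3b), 0.594 (Ifi44) and -0.920 (Isg15) in the tissue difference. The cause was not tested.

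With 1 animal left out, the median of KO minus Het ran from -0.34 to -0.0676 in forebrain and from -0.77 to -0.16 in isolates, and that of the tissue difference from -0.32 to 0.32. In the isolate-over-forebrain contrast 8 to 10 genes passed with 1 animal left out, and 10 with the animal as replicate block (median 2.40) or over 8 control animals (median 2.39). The replicate block was run in that contrast and in the tissue difference (median 0.05) and changed no call of the 10 genes. In the antibody contrast 0 to 9 of the 10 passed in forebrain with 1 animal left out. In isolates 9 passed without a count filter, 8 without the sex term, 9 by DESeq2, 8 over 15 libraries, and 0 to 9 with 1 animal left out, where 819, 983, 1868, 988 and 0 to 6905 of all genes passed, against 110. Ifi35 in forebrain was 1.16 without anti-IL34 animal 11. Counts over all genes in KO isolates moved from 976 to 3710 by DESeq2, 2189 without the sex term, 1993 without a filter, 2734 over 15 libraries and 0 to 5756 with 1 animal left out (0 in 5 of 7 fits), and in the tissue difference from 599 to 3557, 2400 and 1569 under the first 3 of these and, with 1 animal left out, 0 to 5688, and 0 with the replicate block. In forebrain they moved from 120 to 381 without a filter and 55 to 117 with 1 animal left out for KO, and from 123 to 349 without a filter, 204 by DESeq2 or over 15 libraries and 25 to 126 with 1 animal left out for the antibody. In KO forebrain the counts a library were 4 to 11 for Ifi204, 9 to 24 for Isg15, 7 to 67 for Ifi44 and 13 to 48 for Usp18.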
